A study of Mus musculus with 4 samples.

Results

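The amyloid and tau pathway genes described here were 31 genes chosen by name: the amyloid precursor protein App and its relatives, the secretases that cut it, proteins that degrade or carry amyloid-beta, endocytic and other interacting proteins, and tau (Mapt) with its kinases. Array probes were assigned to them through the transcript accession of each probe. Of the 31 genes, 30 had at least 1 probe among 16535 genes named in this way, and 42 of 41174 probes belonged to them (19 genes had 1 probe, 10 had 2 and Mapt had 3). Sorl1 was not analysed here because no probe matched it.

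Messenger RNA of whole brain was compared at 50 weeks of age in 3 groups: SAMP8 mice whose diet was supplemented with whale meat extract (WME), SAMP8 mice on the low-safflower oil (LSO) control diet, and SAMR1 mice on the LSO diet. SAMP8 is a senescence-accelerated strain with early learning and memory deficits, and SAMR1 is its senescence-resistant companion strain. The labels give both strains the same background, AKR/J with suspected outbreeding to an unknown line, and name no transgene. Both diets were given from week 24 for 26 weeks, and all mice went through 8 days of behavioural tests at week 49. On each of 4 two-colour arrays a pair of RNAs competed for the same spots, 1 in the green dye Cy3 and 1 in the red dye Cy5. The diet comparison, SAMP8 WME over SAMP8 LSO, was made on arrays 1 and 2. The strain comparison, SAMP8 LSO over SAMR1 LSO, was made on arrays 3 and 4. The dyes were exchanged between the arrays of a pair. The SAMP8 LSO group stands in both comparisons.

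Amyloid-beta is released when App is cut first by beta-secretase and then by the gamma-secretase complex, whereas a first cut by alpha-secretase falls within the amyloid-beta stretch and prevents its release. Amyloid-beta is removed by proteases and by receptor-mediated uptake, and App meets its secretases along the endocytic route. Tau binds microtubules and leaves them when it is heavily phosphorylated, and App and tau are the source proteins of the plaques and tangles of Alzheimer disease.

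No member reached a 1.5-fold difference in the same direction on both arrays in either comparison (0 of 42 probes each), and none reached 1.2-fold. Over all measured probes, 0.08% passed 1.5-fold and 0.264% passed 1.2-fold in the diet comparison, and 1.43% and 4.38% in the strain comparison. Set against those shares, 0 of 42 at 1.5-fold is near the background in both comparisons. The widest differences of the members lay between strains. Apba1 was 1.34-fold higher in SAMP8 than in SAMR1. Both Adam17 probes were above 0 on both arrays, as were 25.1% of all measured probes. Each group was 1 RNA, so these values compare RNAs, carry no test and have no check by independent mice. Values are log2 ratios as the mean over both dye orientations ± SD (n = 2 arrays of the same RNAs), and the SD holds the dye bias that the mean cancels.

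All 42 member probes were well above background in all 8 channels, and 0 were saturated. Median spot intensities of the arrays were between 275 and 321 in Cy3 and between 306 and 357 in Cy5, over backgrounds of 65 to 75.5. Markers of neurons, astrocytes, oligodendrocytes, microglia, endothelium, mural cells, choroid plexus and cerebellum (6 each) were all above background. In a bulk sample, fewer cells of a type and less RNA per cell cannot be told apart. Of 6 kidney tubule markers, 3 passed 1.5-fold higher in SAMP8 WME (Kap 4.44), where 0.08% of all measured probes passed in either direction. Slc12a1 (0.01) and Slc22a6 (0.03) were near 0. For SAMP8 over SAMR1, 4 were lower past 1.2-fold (Kap −3.00) and Slc22a6 was higher (0.43). The summed signal was 6934 to 7428 in SAMP8 WME and 2593 to 2920 in SAMP8 LSO. The 6 cerebellar markers were all lower in SAMP8 WME on both arrays, where 17.1% of all measured probes were. Their median was −0.24, with a summed signal of 96907 to 97173 in SAMP8 WME and 109264 to 114193 in SAMP8 LSO. The part of the kidney tubule and cerebellar markers in the member values was not tested.

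RefSeq promoter windows (build GRCm38.p6, 250 bases before each annotated start) were found for 25 of the 31 genes, Sorl1 included, as 37 windows. None was found for Bace1, Bace2, Bin1, Cdk5, Cdk5r1 and Mapt. Some genes gave several windows, such as Ece1 and Mme, and windows of a gene can overlap. The shares below therefore count windows and not genes. The GC content of the 37 windows ranged from 27.2% to 81.6% with a median of 63.6%, against a median of 52.4% over all 32851 windows (27025 genes). The number of CG pairs ranged from 0 to 49 with a median of 17, against 6. The GC box GGGCGG, on either strand, was in 23 of 37 member windows (62.2%) and in 32.7% of all windows. The TATA sequence TATAAA, on either strand, was in 5.41% and 12.4%, and these motifs cannot overlap each other. Windows are printed for App, as the substrate of the pathway, for Apba1, as the member with the widest strain difference, and for Adam17, whose probes were both above 0 between strains, each 5′ to 3′ on the strand of the gene with GC boxes on either strand in capitals. App is on the minus strand (chr16:85173708-85173957), Apba1 on the plus strand (chr19:23758626-23758875) and Adam17 on the minus strand (chr12:21373633-21373882).
App: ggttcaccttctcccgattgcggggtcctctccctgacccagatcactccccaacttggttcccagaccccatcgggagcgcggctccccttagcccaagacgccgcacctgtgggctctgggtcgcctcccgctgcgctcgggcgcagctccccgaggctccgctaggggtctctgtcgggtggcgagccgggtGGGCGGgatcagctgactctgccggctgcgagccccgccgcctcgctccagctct
Apba1: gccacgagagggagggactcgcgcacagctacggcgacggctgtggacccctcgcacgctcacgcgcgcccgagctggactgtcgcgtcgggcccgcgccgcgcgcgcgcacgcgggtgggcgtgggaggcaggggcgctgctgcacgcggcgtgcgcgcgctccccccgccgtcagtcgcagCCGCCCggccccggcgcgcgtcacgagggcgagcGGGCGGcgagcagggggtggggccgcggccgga
Adam17: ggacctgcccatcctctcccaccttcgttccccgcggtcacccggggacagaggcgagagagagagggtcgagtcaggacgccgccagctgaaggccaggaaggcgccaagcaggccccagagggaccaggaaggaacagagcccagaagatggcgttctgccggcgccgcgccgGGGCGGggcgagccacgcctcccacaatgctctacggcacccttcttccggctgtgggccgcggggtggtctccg
App and Adam17 each held 1 GC box and Apba1 held 2, and GC made up 81.6% of the Apba1 window with 49 CG pairs. These are letters of the reference genome and not of SAMP8 or SAMR1, and a match is no evidence that a factor binds there.

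**Figure D1:**
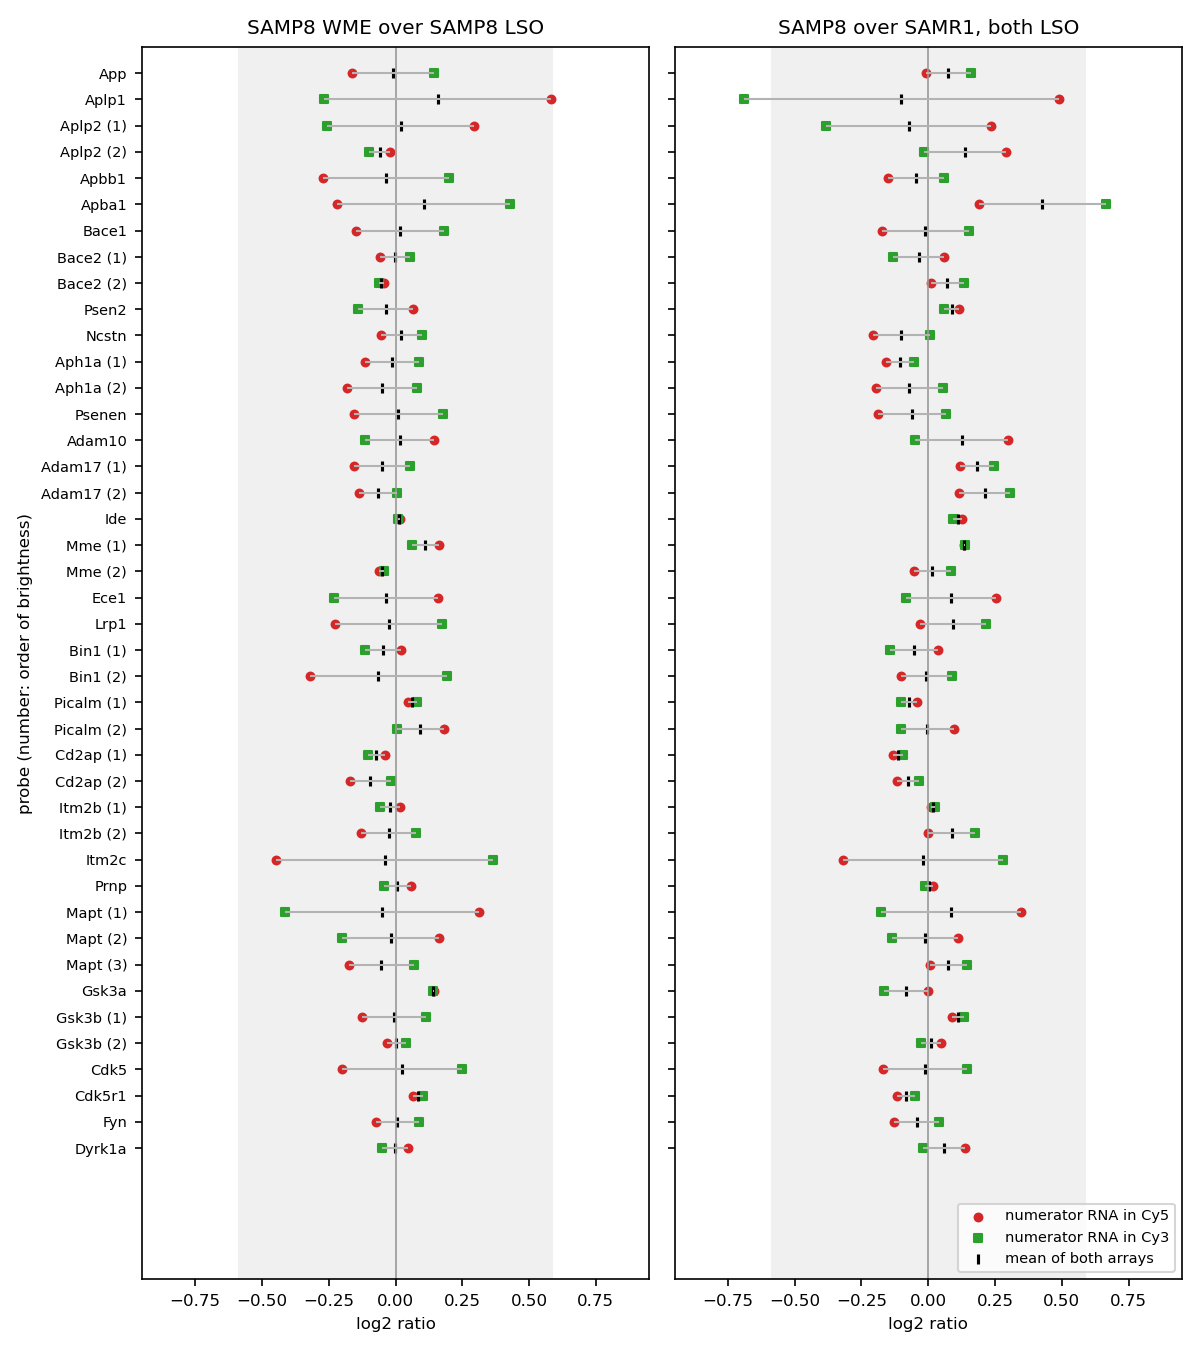
Log2 ratio of each member probe on each array (x axis) in the diet comparison (left) and the strain comparison (right). Red circles are arrays with the first-named RNA in Cy5, green squares those with it in Cy3, black ticks the means, and the grey band is within 1.5-fold. No probe has both arrays outside the band on the same side.

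Among the precursor proteins, App differed little in either comparison after loess. Its log2 signal was 14.93 and 15.13 in SAMP8 WME, against 15.09 and 14.99 in SAMP8 LSO. The log2 ratio was −0.01 ± 0.22, with 1 array below 0 and 1 above, and the readings overlapped. Overlap, here and below, compares 2 readings of 1 RNA per group, 1 in each dye. It holds the dye bias and does not measure spread within a group. The share of all probes without overlap was not counted. In the strain comparison App had a log2 signal of 14.98 and 15.11 in SAMP8 and 14.98 and 14.95 in SAMR1, with overlap and a log2 ratio of 0.08 ± 0.12. With median centring in place of loess App was at 0.21 for diet and −0.03 for strain. Probes at least as bright as the median member then had medians of 0.20 and −0.09. Aplp1, an App relative that yields no amyloid-beta, had log2 ratios of 0.58 and −0.27 on the diet arrays and 0.49 and −0.69 on the strain arrays. These opposite signs gave means of 0.16 ± 0.60 and −0.10 ± 0.83, and whichever RNA was in Cy5 was the higher on all 4 arrays. Aplp2, the other relative, behaved likewise at its brighter probe (diet 0.02 ± 0.39, strain −0.07 ± 0.44). Its dimmer probe gave −0.06 ± 0.06 and 0.14 ± 0.22, so the probes of Aplp2 had opposite signs in both comparisons.

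The cytoplasmic adaptors of App differed from each other. Apba1 encodes Mint1, a neuronal adaptor that binds the tail of App. Its log2 signal was 12.18 and 12.43 in SAMP8, against 11.99 and 11.77 in SAMR1. Both SAMP8 values were above both SAMR1 values, and 25.1% of all measured probes were above 0 on both strain arrays. The log2 ratios of Apba1, 0.19 and 0.66, averaged 0.43 ± 0.34, or 1.34-fold higher in SAMP8. In the diet comparison its log2 signal was 12.19 and 12.51 in SAMP8 WME and 12.40 and 12.08 in SAMP8 LSO, with overlap and ratios of opposite sign (0.11 ± 0.46). Apbb1, which encodes the adaptor Fe65, had −0.03 ± 0.33 for diet and −0.05 ± 0.15 for strain. Apba1 was measured by a single probe, so no second probe could be set beside its strain ratio.

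The secretase genes were close to equal in the diet comparison after loess. With median centring in place of loess Bace1 was at 0.22, Psenen at 0.21 and Psen2 at 0.15. The others then ranged from −0.06 (Ncstn) to 0.08 (Aph1a). Probes at least as bright as the median member had a median of 0.20 under that scaling. Bace1, the main beta-secretase of brain, had a log2 signal of 13.47 and 13.62 in SAMP8 WME and 13.62 and 13.44 in SAMP8 LSO, a ratio of 0.02 ± 0.23. Its strain ratio was −0.01 ± 0.23, from 13.45 and 13.60 in SAMP8 and 13.62 and 13.45 in SAMR1. Bace2, its homologue, was a dim transcript whose probes gave 0.00 ± 0.08 and −0.05 ± 0.01 for diet, and −0.04 ± 0.14 and 0.07 ± 0.09 for strain. Among the 4 gamma-secretase genes the diet ratios of the brightest probes were between −0.04 (the catalytic subunit Psen2) and 0.02 (nicastrin, Ncstn). Ncstn was dim too, with a log2 signal of 7.28 and 7.41 in SAMP8 WME. With the processed signals its ratios were 0.20 for diet and −0.20 for strain. Their strain ratios were −0.11 ± 0.08 for Aph1a, −0.10 ± 0.15 for Ncstn, −0.06 ± 0.18 for Psenen and 0.09 ± 0.04 for Psen2. A negative mean was thus found for 3 of the 4 gamma-secretase genes, where 51.5% of all measured probes had one, and Psen2 had a positive one. The second Aph1a probe gave −0.07 ± 0.18.

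Both alpha-secretases had positive mean ratios between strains, also under every scaling tried, where 48.5% of all measured probes had one. Adam17, a membrane protease that also sheds tumour necrosis factor, had a log2 signal of 10.02 and 10.02 in SAMP8, against 9.90 and 9.77 in SAMR1, at its brighter probe. The dimmer probe read 9.18 and 9.25 in SAMP8 and 9.07 and 8.95 in SAMR1. The SAMP8 values lay above the SAMR1 values at both probes, with log2 ratios of 0.18 ± 0.09 and 0.21 ± 0.14. Both probes were above 0 on both arrays, as were 25.1% of all measured probes. In the diet comparison the Adam17 probes gave −0.05 ± 0.15 and −0.06 ± 0.10, with overlapping readings at both probes. Adam10, the main alpha-secretase of neurons, had strain ratios of 0.30 and −0.05 on the 2 arrays (0.12 ± 0.25) and a diet ratio of 0.02 ± 0.18.

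**Figure D2:**
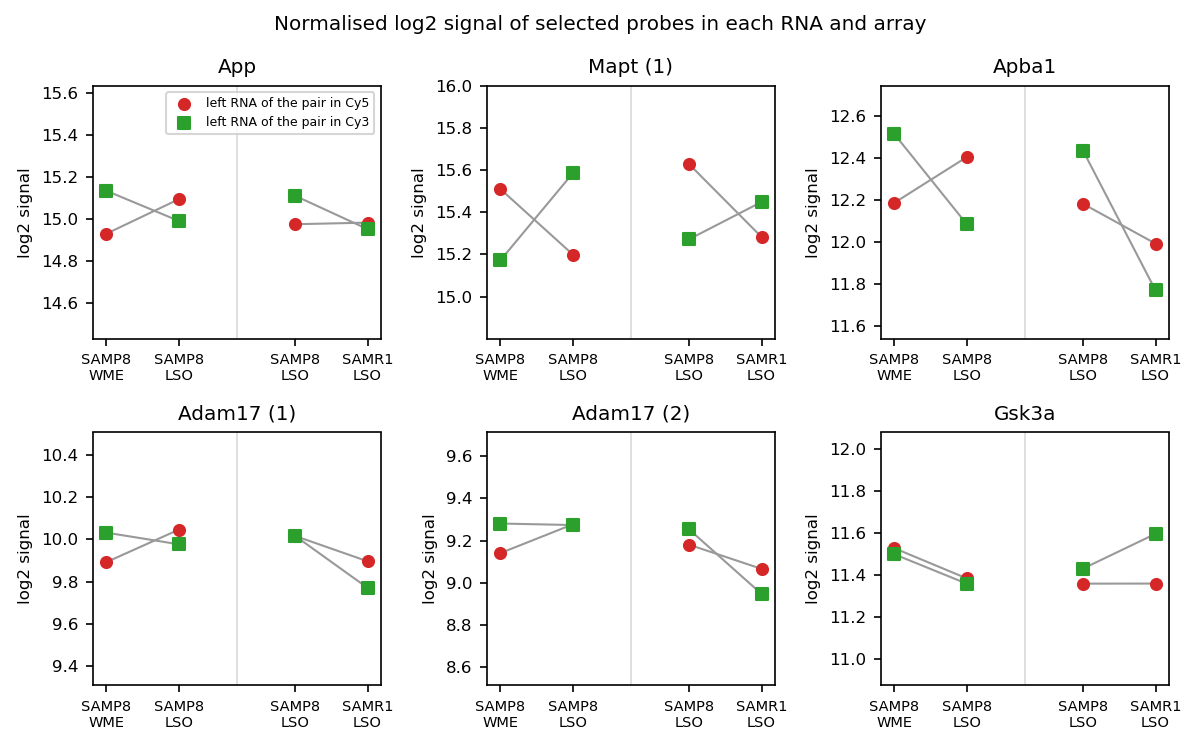
Normalised log2 signal (y axis) of 6 member probes in each RNA, with the diet pair at the left and the strain pair at the right of each panel. Lines join the RNAs of 1 array. For Apba1 and both Adam17 probes the SAMP8 points lie above the SAMR1 points, whereas for App and the brightest Mapt probe the lines cross in the diet pair.

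The clearance genes had strain ratios between 0.09 and 0.13, all 4 with a positive mean, also under every scaling tried (0.01 for Ece1 and Lrp1 with median centring), where 48.5% of all measured probes had one. The 11 other clearance genes went both ways, 4 above 0 and 3 below 0 on both strain arrays (−0.17 to 0.42). Ide, the insulin-degrading enzyme, had a log2 signal of 11.99 and 11.95 in SAMP8, against 11.87 and 11.86 in SAMR1. Ide was above 0 on both strain arrays, as were 25.1% of all measured probes. The difference was small with no overlap, 0.11 ± 0.02 on 2 arrays of the same RNAs. A narrow SD of this kind shows that both dye orientations gave like values, and does not measure how mice vary. Mme (neprilysin, a membrane protease that degrades amyloid-beta) read 8.04 and 8.03 in SAMP8 and 7.91 and 7.90 in SAMR1 at its brighter probe. That probe gave 0.13 ± 0.0031, and the dimmer one gave 0.02 ± 0.10 with signs that differed between arrays. Ece1, the endothelin-converting enzyme, had 0.09 ± 0.24 and Lrp1, a receptor that carries amyloid-beta, had 0.09 ± 0.17, each with ratios of opposite sign on the 2 arrays. In the diet comparison the Mme probes gave 0.11 ± 0.07 and −0.05 ± 0.01, each with the same sign on both arrays but opposite to the other. Ide (0.01 ± 0.0049), Ece1 (−0.04 ± 0.27) and Lrp1 (−0.03 ± 0.28) were nearer 0 after loess. With median centring these 3 were at 0.19, 0.15 and 0.16, and the brighter Mme probe at 0.09.

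Markers of several cell types differed between the strains. All 6 endothelial markers were above 0 on both strain arrays (0.14 to 0.44, 0 of 6 past 1.5-fold), where 25.1% of all measured probes were, with a summed signal of 19322 to 21876 in SAMP8 and 15743 to 16518 in SAMR1. Of 6 mural cell markers 3 passed 1.5-fold higher in SAMP8, where 1.43% of all measured probes passed in either direction. The 6 ranged from −0.14 to 0.96, 4 above 0 and 1 below on both arrays. Their summed signal was 16171 to 17043 in SAMP8 and 12938 to 13365 in SAMR1. All 6 choroid plexus markers were below 0 on both strain arrays (−0.32 to −0.07), where 25.6% of all measured probes were, with a summed signal of 14657 to 15062 in SAMP8 and 16473 to 17006 in SAMR1. Astrocyte markers ranged from −0.06 to 0.55, with 52218 to 55710 in SAMP8 and 49962 to 52048 in SAMR1. Neuronal markers ranged from −0.10 to 0.08. No defining marker of these lists was below background, and their part in the member values was not tested.

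The 3 endocytic genes had negative mean ratios between strains, also under every scaling tried, where 51.5% of all measured probes had one. The other 8 trafficking genes measured went both ways, 2 above 0 and 3 below 0 on both strain arrays (−0.12 to 0.07). Cd2ap, an adaptor of endocytic and actin-linked membranes, had a log2 signal of 11.21 and 11.22 in SAMP8 and 11.34 and 11.31 in SAMR1 at its brighter probe. Its ratios were −0.11 ± 0.03 and, at the dimmer probe, −0.08 ± 0.06 for strain. For diet they were −0.07 ± 0.04 and −0.10 ± 0.11. Cd2ap was thus below 0 at both probes on all 4 arrays, in comparisons that share the SAMP8 LSO group, although its diet ratio was 0.09 at the brighter probe with median centring in place of loess. Picalm, a clathrin assembly protein, had −0.07 ± 0.04 and 0.00 ± 0.14 for strain, and its diet ratios of 0.06 ± 0.02 and 0.09 ± 0.12 were above 0 on both arrays. Bin1, a protein that bends membranes, had −0.05 ± 0.13 and −0.01 ± 0.13 for strain, against −0.05 ± 0.10 and −0.06 ± 0.36 for diet. With median centring the diet ratio of Bin1 was 0.18 at the brighter probe.

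The genes of BRI and prion proteins differed little after loess. With median centring their diet ratios ranged from 0.19 (Itm2c) to 0.25 (Prnp), and their strain ratios from −0.13 (Itm2c) to −0.10 (Itm2b). Itm2b, whose protein inhibits App processing, gave −0.02 ± 0.05 and −0.03 ± 0.15 for diet and 0.02 ± 0.01 and 0.09 ± 0.13 for strain. The prion protein gene Prnp, whose product binds amyloid-beta oligomers, gave 0.01 ± 0.07 and 0.00 ± 0.02. Itm2c, a relative of Itm2b, had means of −0.04 ± 0.57 and −0.02 ± 0.43. Its arrays read −0.45 and 0.37 for diet and −0.32 and 0.28 for strain, so the RNA in Cy3 was the higher on all 4.

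Of Mapt and 6 genes of tau kinases and a kinase activator, 6 of 7 had a mean ratio within 0.1 of 0 in each comparison. These are ratios after loess at the brightest probe, and the exceptions were Gsk3a for diet and Gsk3b for strain. With median centring in place of loess the diet ratios ranged from 0.12 (Dyrk1a) to 0.31 (Gsk3a and Cdk5r1). The brightest Mapt probe had a log2 signal of 15.51 and 15.17 in SAMP8 WME, against 15.20 and 15.59 in SAMP8 LSO, and 15.63 and 15.27 in SAMP8, against 15.28 and 15.45 in SAMR1. The readings overlapped in both comparisons. The 3 Mapt probes gave −0.05 ± 0.51, −0.02 ± 0.26 and −0.05 ± 0.17 for diet, and 0.08 ± 0.37, −0.01 ± 0.17 and 0.08 ± 0.10 for strain. Gsk3a, a glycogen synthase kinase that phosphorylates tau, read 11.53 and 11.50 in SAMP8 WME and 11.38 and 11.36 in SAMP8 LSO. Its ratio of 0.14 ± 0.0026 had nearly the same value on both diet arrays, while its strain ratio was −0.08 ± 0.12. Its paralogue Gsk3b gave −0.01 ± 0.17 and 0.00 ± 0.05 for diet and 0.11 ± 0.03 and 0.01 ± 0.05 for strain. Cdk5, a neuronal tau kinase, had 0.02 ± 0.32 and −0.01 ± 0.22, and its activator Cdk5r1 (p35) had 0.09 ± 0.03 for diet and −0.08 ± 0.05 for strain. Fyn, a kinase that phosphorylates tau on tyrosine, had 0.01 ± 0.11 and −0.04 ± 0.12. Dyrk1a, a kinase that phosphorylates tau and App, had 0.00 ± 0.07 and 0.06 ± 0.11.

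Across the 30 genes, each by its brightest probe, the median log2 ratio was 0.0027 for diet (−0.07 to 0.16) and −0.012 for strain (−0.11 to 0.43). Over all measured probes the medians were 0.0033 and −0.0031, and over all named genes, each by its brightest probe, 0.0057 and 0.0006. In the diet comparison 15 genes were above 0 and 15 below, and in the strain comparison 14 and 16. Of all named genes by their brightest probe, 54.1% were above 0 for diet. For strain 50.2% were above 0 and 49.8% below. Within 0.1 of 0 on the log2 scale were 26 of 30 genes (86.7%) for diet, against 88.3% of all measured probes, and 20 of 30 (66.7%) for strain, against 70.5%. Among all named genes by their brightest probe the shares were 88.4% and 71.3%. The SD of the mean ratios over the 42 member probes was 0.0590 for diet and 0.106 for strain, or 0.0863 for strain without Apba1, where all measured probes had 0.0804 and 0.198.

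**Figure D3:**
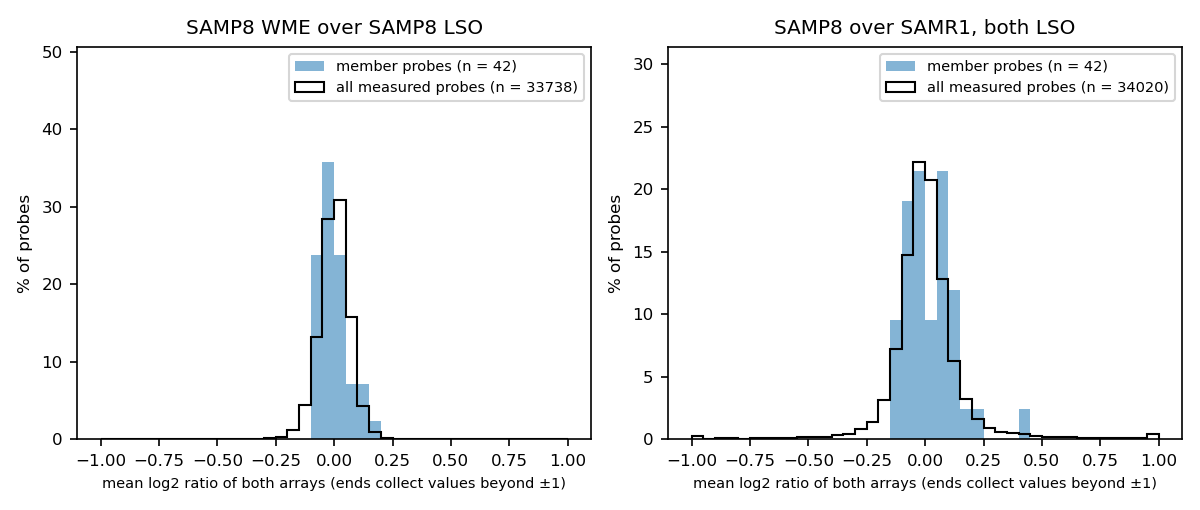
Share of probes (y axis, %) by mean log2 ratio (x axis) for the 42 member probes (filled) and all measured probes (outline), diet at the left and strain at the right. Members lie around 0 in both, between −0.10 and 0.16 for diet and −0.11 and 0.43 for strain, with Apba1 alone at the right in the strain panel.

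Agreement of sign between the dye orientations was counted as a descriptive measure added after the values were seen. In the diet comparison 11 of 42 member probes (26.2%) had the same sign on both arrays, against 37.6% of all measured probes. Of the 11, 6 were higher in SAMP8 WME and 5 lower, against 20.4% and 17.1% of all. These were both probes of Mme, Picalm and Cd2ap and 1 probe each of Aplp2, Bace2, Ide, Gsk3a and Cdk5r1. In the strain comparison 16 of 42 (38.1%) did, 10 higher and 6 lower in SAMP8, against 50.7% of all, of which 25.1% were higher and 25.6% lower. The higher ones were Apba1, Psen2, Ide, both probes of Adam17, the brightest of Mme, Itm2b and Gsk3b, the second of Bace2 and the third of Mapt. The lower ones were the brightest of Aph1a and Picalm, both of Cd2ap, Gsk3a and Cdk5r1. Opposite signs beyond 1.2-fold on both arrays occurred at 3 of 42 member probes for diet (Aplp1, Itm2c and the brightest of Mapt; 7.14%, against 0.99% of all) and at 2 of 42 for strain (Aplp1 and Itm2c; 4.76%, against 0.6%). Member probes were brighter, with a median log2 intensity of 12.06 against 9.15 over all probes measured in both comparisons.

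The dye term of a probe, the part of its log2 ratio that follows the dye and cancels in the mean, exceeded the mean ratio at 31 of 42 member probes for diet (73.8%, against 62.6% of all probes measured in both comparisons) and at 26 for strain (61.9%, against 49.2%). Its SD over member probes was 0.167 and 0.155, against 0.108 and 0.103 over all probes. The term was alike in both pairs (Pearson r = 0.92 across the 42 member probes, which share arrays, slide and probes). The difference between the pairs' dye terms, divided by √2, holds neither RNA difference nor stable dye bias and has the scale of a mean ratio's technical error. Over member probes it had an SD of 0.0475 and reached 0.117 in size. Beyond that size, a limit chosen after the values were seen, were 2 of 42 member probes for diet (4.76%, against 7.4% of all), those of Aplp1 and Gsk3a, both higher in SAMP8 WME (3.38% of all were higher). For strain there were 6 of 42 (14.3%, against 23.8% of all, 12.3% of all being higher), all higher in SAMP8: Apba1, both probes of Adam17, the dimmer of Aplp2, the brighter of Mme, and Adam10.

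**Figure D4:**
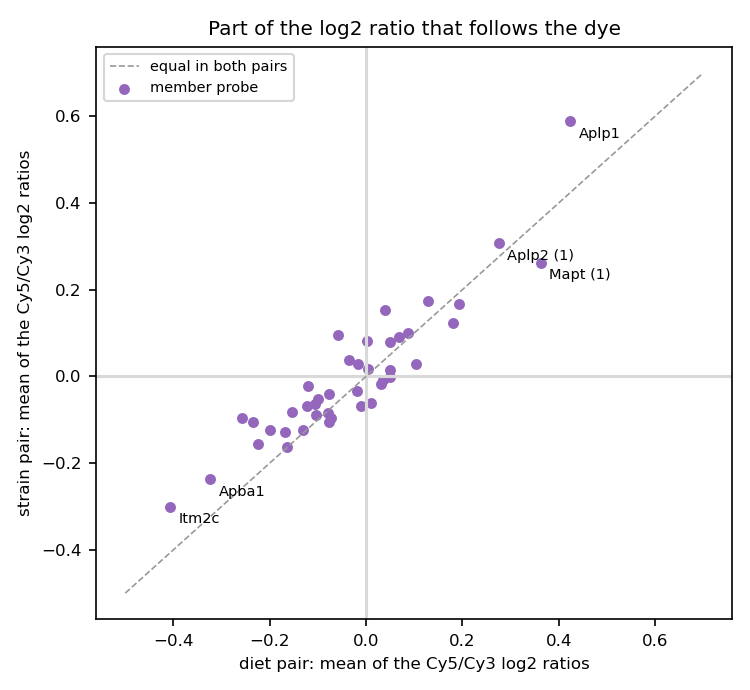
Dye term of each member probe (mean of the Cy5 over Cy3 log2 ratios of both arrays) in the diet pair (x axis) and the strain pair (y axis), with the line of equality. Aplp1 and Itm2c lie at opposite ends near the line.

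Of the 11 genes with more than 1 probe, the probes had the same sign of the mean ratio in 8 and mixed signs in 3, in each comparison. The range between the probes of a gene had a median of 0.030 for diet and 0.071 for strain. It was widest for Mme in the diet comparison (0.163) and for Aplp2 in the strain comparison (0.209). The range was smaller than the distance of the nearest probe from 0 for Adam17, Aph1a and Cd2ap in the strain comparison, and for Adam17, Bin1, Picalm, Cd2ap and Itm2b in the diet comparison.

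**Figure D5:**
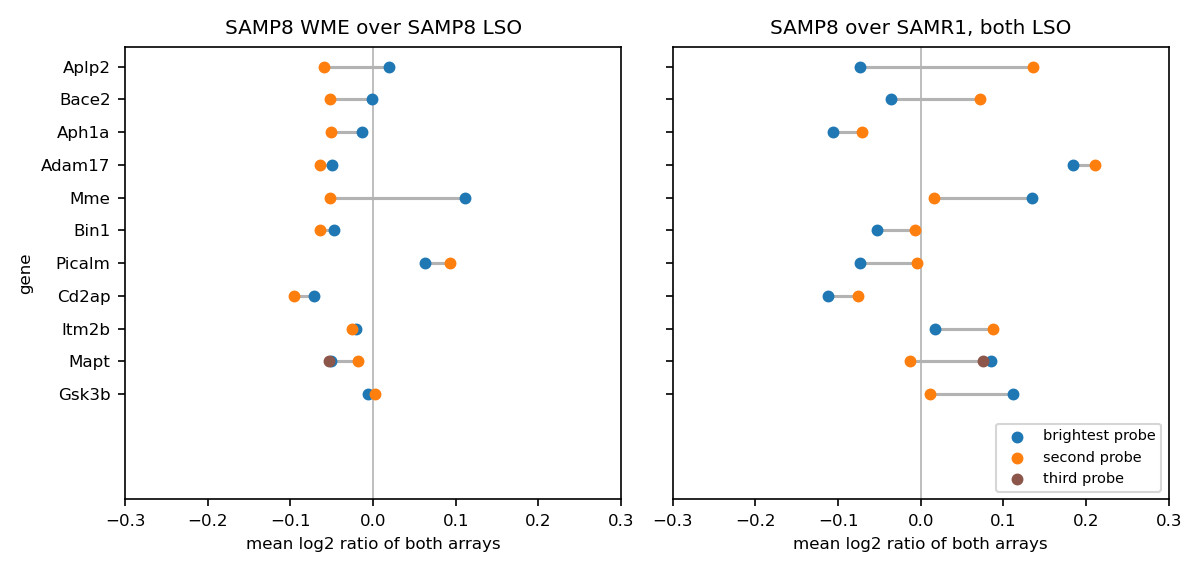
Mean log2 ratio (x axis) of each probe of the 11 genes with more than 1 probe, joined per gene, diet at the left and strain at the right. The Adam17 probes lie together near 0.2 in the strain panel, and the Mme and Aplp2 probes are spread most, by 0.163 for diet and 0.209 for strain.

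Another 56 genes of the pathway (further adaptors, secretase regulators, clearance proteins, sorting proteins, and tau kinases and phosphatases) were set beside the members, of which 54 had a measured probe. In the diet comparison 0 of 54 passed 1.5-fold. A2m, the protease inhibitor alpha-2-macroglobulin, was at −0.15 ± 0.09. In the strain comparison 1 of 54 passed 1.5-fold: Timp3, an inhibitor of metalloproteinases that include Adam17, at −0.63 ± 0.04 (1.55-fold lower in SAMP8), where 1.43% of all measured probes passed. At 1.2-fold Plat, the tissue plasminogen activator, at 0.42 ± 0.03 and A2m at 0.35 ± 0.01 were also higher in SAMP8, named after their values were seen, which makes 3 of 54 past 1.2-fold, against 4.38% of all. Both shares are near the background. The median of the 54 was 0.02 for diet and −0.01 for strain.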

How the data were processed

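Whole-brain RNA was hybridised to 4 two-colour Agilent arrays. The deposited spot intensities come from Agilent Feature Extraction 11.0.1.1, per the submitters' processing notes. Median spot and local background intensities are raw, and that program subtracted background and normalized dyes in the processed intensities, per the file headers. The log10 ratios in the deposited scanner files were made from the processed signals and were not used. The deposited series table holds log2 ratios equal to log2 red over green processed signal (largest difference 5e-09), not turned for the dye swap, with column medians of −0.018, 0.012, 0.0036 and 0.017. How many mice gave each RNA is not stated in the labels.

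Median intensities were corrected with normexp (offset 50) and normalized by loess within arrays with limma 3.58.1 under R 4.3.3. Control spots had weight 0, and outlier spots (105 to 123 per array) were left out. Spots of a probe were averaged, ratios turned for dye, and both arrays of a pair averaged as 1 technical replicate. Levels per RNA were taken after Aquantile. A probe counted as measured when, on both arrays, 1 RNA or both lay well above background, and passed when at least 1.5-fold, or 1.2-fold, in the same direction on both. A gene is represented by its brightest probe. The steps were tested on simulated data. Genes were named through RefSeq accessions in the GRCm38.p6 gene table (23374 of 41174 probes), used for names because the array headers give another build. The number of arrays limits the precision, and no test was run.

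The members and lists were chosen with earlier results of these data known. All members were named with every probe, and of the other pathway genes those past 1.5-fold, or otherwise the 2 farthest from 0 in a comparison, of which 1 is not reported here. Alternatives were the processed signals, median centring, an offset of 10, 2 filters on dim probes, the median over probes, and each array alone. Median log2 ratios of the marker lists in the diet and strain comparisons were −0.02 and 0.00 (neurons), −0.10 and 0.07 (astrocytes), −0.04 and 0.00 (oligodendrocytes), 0.10 and −0.02 (microglia), −0.10 and 0.30 (endothelium), −0.07 and 0.49 (mural cells), 0.06 and −0.17 (choroid plexus), −0.24 and 0.08 (cerebellum) and 0.93 and −0.44 (kidney tubule).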

Additional observations from a re-analysis of the deposited data

How the results depend on the processing

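No member probe passed 1.5-fold under the processed signals, median centring or an offset of 10, in either comparison. The filters on dim probes left every member probe in with its value unchanged, so they were no check of this. On single arrays, where dye bias is not cancelled, the count of member probes was 0 for diet and 0 to 2 for strain. Over all probes, 27 passed for diet and 487 for strain, against 124 and 922 with the processed signals, and 85 to 117 and 683 (either array) on single arrays. The median member ratio of 0.0027 for diet was 0.18 under median centring without loess, where probes at least as bright as the median member had 0.20 and all measured probes 0.063, and −0.012 to 0.070 on single arrays. The strain median of −0.012 was −0.084 under median centring (0.0047 with the processed signals, 0.011 with the median over probes, 0.014 to 0.015 on single arrays), where probes at least as bright as the median member had −0.089 and all measured probes −0.020. The cause was not tested. Of 60 gene ratios, 21 moved by more than their SD under median centring and 5 with the processed signals. With the median over probes 4 moved, with an offset of 10 there were 2, and under either filter 0. The filters could not move any, because all 42 member probes were well above background in all 8 channels. The SD holds dye bias, so these counts do not rank how stable the ratios are. For diet, Aplp1 went from 0.16 to 0.41 under median centring without being counted. Gsk3a, at 0.142 for diet, was counted at 0.31 under median centring and at 0.145 with an offset of 10. No paired analysis was possible because each group is 1 RNA and the arrays of a pair are a technical dye swap.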
